A study of Homo sapiens with 6 samples.

Results

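Autophagy is the pathway that wraps cytoplasm in a growing membrane, the phagophore, and delivers it to lysosomes. The ULK1 kinase complex starts the process, a lipid kinase complex around PIK3C3 marks the membrane with phosphatidylinositol 3-phosphate, and lipid transfer and scrambling proteins let it grow. A pair of ubiquitin-like conjugation systems then attaches ATG8 proteins (LC3 and GABARAP) to the membrane, and cargo receptors bridge ubiquitylated cargo to ATG8. TFEB and TFE3 are transcription factors of autophagy and lysosome genes. The genes described here are 38 members of this machinery, chosen by symbol from 57820 annotated genes of the deposited table. All 38 were found, each on 1 row. They were grouped by step: initiation (4 genes), the PI3K complex (6), phagophore growth and lipid supply (6), conjugation (10), ATG8 proteins (5), cargo receptors (5), and TFEB with TFE3 (2 genes).

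The study measured polyadenylated RNA of U2OS cells, a line established from a human osteosarcoma, that received either NMS-873 at 5 µM (3 libraries) or its solvent DMSO at 0.05% (3 libraries) for 4 h. NMS-873 inhibits VCP (p97) allosterically; VCP is an ATPase that extracts ubiquitylated proteins from membranes and complexes and that is also known to act in autophagy. The labels name no genetic change, and all 6 libraries came from this 1 line. The labels do not say whether libraries came from separate cultures, so the spread that p-values rest on may be technical. In bulk RNA, fewer cells making a transcript and less of it per cell cannot be told apart.

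Reads in genes numbered 21132311 to 22488952 per library. Of the bone and mesenchymal markers, COL1A1 (225 FPKM with DMSO), SPARC (442 FPKM), CDH11 (3.28 FPKM) and RUNX2 (1.27 FPKM, and 0.656 with NMS-873) were detected, COL1A2 was at 0.0450 FPKM and TWIST1 at 0; FPKM is reads scaled by gene length and library. Of the markers of epithelium and blood, EPCAM was at 1.40 FPKM with DMSO, above RUNX2. CDH1 and PTPRC were at 0.252 and 0.0716 FPKM with DMSO. NMS-873 replicate 1 stood apart from the other libraries of its group: chi-square divided by its degrees of freedom, over genes, was 7.36 and 7.81 for its reads against NMS-873 replicates 2 and 3, and 1.79 between those 2. DMSO replicate 3 stood apart to a lesser degree, at 3.56 and 3.63 against DMSO replicates 1 and 2, which were at 1.53 to each other. Values are normalised counts (reads scaled to the spike-in RNA) unless FPKM is named, and means are ± SD over 3 libraries.

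With NMS-873, 3 of 4 initiation genes, 2 of 4 tested ATG8 genes and 5 of 5 cargo receptors were higher. In the lipid kinase complex 1 of 6 genes was lower, and of the 10 conjugation genes 2 were higher and 2 lower. The 37 genes whose mean over the libraries reached 10 normalised counts were tested, and only MAP1LC3A did not. Of these 37, 14 rose and 3 fell at an adjusted p under 0.05 in limma; over all 14889 genes tested, 47.9% were called, 14.9% higher and 33% lower. With at least a 1.2-fold change, 9 genes rose and 2 fell, against 9.97% and 21.3% of all genes. The median log2 difference (log2 of NMS-873 over DMSO) was 0.09 over the 37 genes and -0.10 over all genes tested. With gene-based factors, which scale libraries to their genes and not to the spike-in RNA, the median of all genes moved from -0.10 to 0.00, and 20 members rose and 2 fell (background 25.3% and 20.9%). With TMM factors 20 rose and 1 fell (26.3% and 19.8%). When NMS-873 replicate 1 was left out, 15 rose and 3 fell. The 3 libraries of one treatment lay wholly above or below those of the other for 19 members, 13 of them higher and 6 lower with NMS-873, against 16.4% and 37.2% of all genes.

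**Figure D1:**
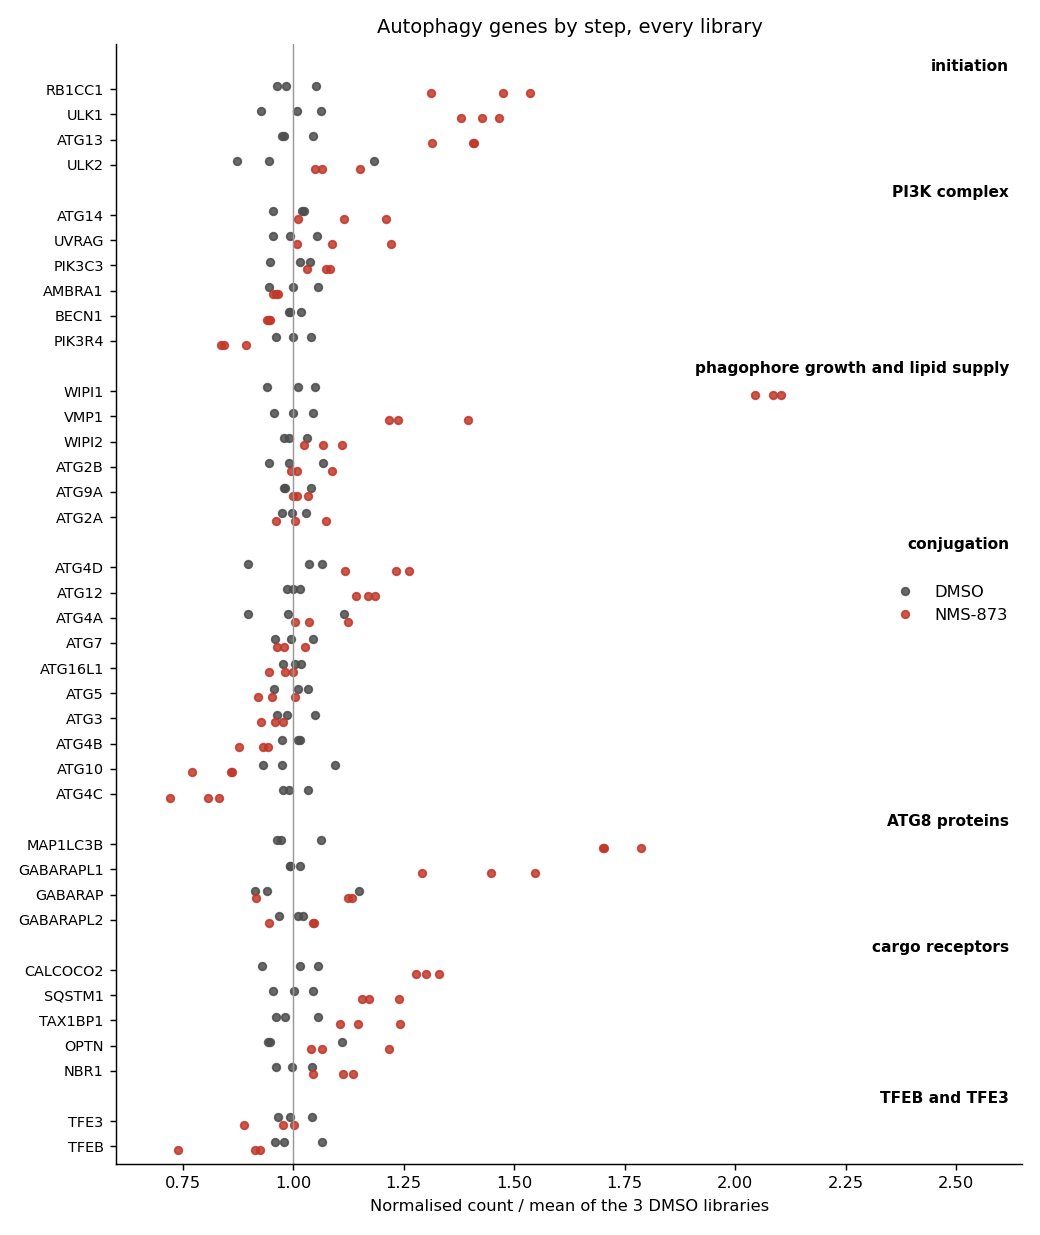
Normalised count of each tested autophagy gene in every library, divided by its mean over the 3 DMSO libraries (x axis), by step; grey points are DMSO and red points NMS-873 libraries. WIPI1 and MAP1LC3B stand farthest to the right, and ATG4C and ATG10 lie to the left.

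The authors' deposited table gives 13 of the members an adjusted p under 0.05, 11 higher and 2 lower, and all 13 were also called here. The members called only here were ATG4D, ATG10, NBR1 and OPTN, for which the authors' deposited table gives adjusted p = 0.0732, 0.141, 0.0669 and 0.165. Of the 17 calls made here, these 4 were the closest to the threshold.

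Promoters were read for the members that rose most, since factors of the ER and amino acid stress responses and TFEB bind known short elements. RefSeq promoter windows (GRCh38.p14, 250 bases before to 50 after a start site) were matched by symbol for 34 of the 38 genes, 12 of the 14 that rose; some genes have several windows, 44 in all. The stretches below lie upstream of the start site, 5′ to 3′ on the gene's strand, and show the 5 members with a rise of at least 1.2-fold whose window held TGACG, the half-site of a cyclic AMP response element, on either strand. Capitals mark the element, which is TGACG in MAP1LC3B, its reverse complement CGTCA in ULK1, the longer TGACGTG in CALCOCO2 and VMP1, and the palindrome TGACGTCA in GABARAPL1. The MAP1LC3B stretch holds a further reverse complement in lower case near its left end. ATG13 and WIPI1 were the other members with such a rise that had a window.
MAP1LC3B, chr16:87392226-87392320, plus strand: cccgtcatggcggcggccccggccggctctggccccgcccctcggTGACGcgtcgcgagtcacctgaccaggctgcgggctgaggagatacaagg
GABARAPL1, chr12:10212802-10212876, plus strand: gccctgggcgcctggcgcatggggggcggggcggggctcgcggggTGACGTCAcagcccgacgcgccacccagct
ULK1, chr12:131894509-131894603, plus strand: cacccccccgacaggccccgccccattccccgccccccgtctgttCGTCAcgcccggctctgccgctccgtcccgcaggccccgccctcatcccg
CALCOCO2, chr17:48830927-48831023, plus strand: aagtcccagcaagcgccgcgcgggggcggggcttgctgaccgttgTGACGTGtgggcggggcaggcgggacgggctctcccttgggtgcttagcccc
VMP1, chr17:59707599-59707653, plus strand: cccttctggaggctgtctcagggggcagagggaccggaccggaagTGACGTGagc

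TGACG, chosen after the data were seen, was found in 7 of 17 windows of the members that rose, 3 of 3 of those that fell and 6 of 24 of those that did not pass, and in 24.5% of 34943 windows of the same length. Counted by gene, these were 7 of 12, 3 of 3 and 6 of 19 members, against 28.4% of 27305 genes. TGACGTG, the core bound by XBP1 and ATF6, contains TGACG; it was in 2 of 17 windows of the members that rose, in 1 of 3 of those that fell (ATG10), in 1 of 24 of the others (ATG3), and in 1.97% of all windows. The palindrome TGACGTCA, also chosen after the data were seen, was in GABARAPL1 alone among the 34 matched members and in 1.84% of all windows. TCACGTG, the core of the element bound by TFEB and TFE3, was found in the windows of ATG3 and ATG14, neither of which passed the test, and in 3.69% of all windows. TGATGNAA, the core of the element bound by ATF4 with C/EBP factors such as CHOP, was in 0 of the 44 windows and in 3.62% of all windows. WIPI1, the member with the largest rise, and ATG13 had none of these motifs in their windows. These are matches of letters in a short window, on both strands, and not evidence of binding.

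Of the 4 initiation genes 3 rose, each by at least 1.38-fold, beside 14.9% of all genes called higher. They were ULK1, RB1CC1 and ATG13, which encode the kinase, the large scaffold FIP200 and the adaptor of 1 complex. ULK1 (ENSG00000177169.5, chromosome 12, 132379196 to 132407712, hg19) was at 327, 356 and 375 normalised counts in DMSO replicates 1 to 3 and 503, 486 and 517 in NMS-873 replicates 1 to 3. Every NMS-873 library was above every DMSO library, a 1.43-fold rise (log2 difference 0.51, SE 0.0748, limma adjusted p = 6.86e-10). RB1CC1 (ENSG00000023287.8, chromosome 8, 53535016 to 53658403) was at 1797, 1646 and 1680.0 normalised counts in DMSO replicates 1 to 3 and 2239, 2517 and 2621 in NMS-873 replicates 1 to 3. The groups did not overlap, and NMS-873 replicate 1 was the lowest of its group; the rise was 1.44-fold (log2 difference 0.52, SE 0.0555, limma adjusted p = 5.83e-17). ATG13 (ENSG00000175224.12, chromosome 11, 46638826 to 46696368) was at 1898, 1909 and 2037 normalised counts in DMSO replicates 1 to 3 and 2558, 2747 and 2741 in NMS-873 replicates 1 to 3, a 1.38-fold rise (log2 difference 0.46, SE 0.0546, limma adjusted p = 4.01e-14). ULK2, the paralogue of ULK1, was much lower, at 58.6, 54.2 and 73.4 normalised counts in DMSO replicates 1 to 3 and 66.2, 71.5 and 65.2 in NMS-873 replicates 1 to 3. Its groups overlapped and it did not pass (log2 difference 0.13, SE 0.154, limma adjusted p = 0.501). The FPKM summed over the 4 genes was 24.9 ± 0.608 with DMSO and 34.9 ± 1.85 with NMS-873. ATG13 and RB1CC1 made up 49.0% ± 1.24 and 41.3% ± 1.87 of that sum with DMSO, and 48.1% ± 0.811 and 42.3% ± 1.19 with NMS-873, which is within the spread of each share.

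In the PI3K complex 1 of 6 genes fell and the other 5 did not pass, beside 33% of all genes called lower. The gene that fell was PIK3R4 (ENSG00000196455.3, chromosome 3, 130397779 to 130465673), the regulatory subunit VPS15, at 1228, 1134 and 1181 normalised counts in DMSO replicates 1 to 3 and 1055, 987 and 997 in NMS-873 replicates 1 to 3, which is 1.17-fold lower (log2 difference -0.22, SE 0.0593, limma adjusted p = 8.52e-04). All NMS-873 libraries lay below the DMSO libraries; with TMM factors the fall no longer passed (adjusted p = 0.0675, range over alternatives 1.61e-04 to 0.0675). The catalytic subunit PIK3C3 (VPS34) was at 564 ± 27.0 with DMSO and 599 ± 15.6 with NMS-873 (log2 difference 0.09, limma adjusted p = 0.286). BECN1, the Beclin 1 scaffold, was at 1177 ± 17.5 and 1111 ± 3.60 (log2 difference -0.08, SE 0.0586, limma adjusted p = 0.245). Its groups did not overlap, but the difference was smaller than that of the median gene (-0.10). AMBRA1, a regulator of Beclin 1, was at 889 ± 48.6 and 854 ± 5.11 (log2 difference -0.06, limma adjusted p = 0.468).

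ATG14 and UVRAG encode the alternative partners of Beclin 1, ATG14 at the phagophore and UVRAG on endosomes. ATG14 was at 493 ± 19.3 normalised counts in DMSO and 548 ± 49.3 in NMS-873 libraries (log2 difference 0.15, SE 0.0707, limma adjusted p = 0.0693), and UVRAG at 453 ± 22.5 and 501 ± 48.6 (log2 difference 0.14, SE 0.0726, limma adjusted p = 0.0955). Groups overlapped for both genes. ATG14 passed upward without NMS-873 replicate 2 (adjusted p = 0.0234, range over alternatives 0.00101 to 0.376) and UVRAG without NMS-873 replicate 1 (adjusted p = 0.0182, range 0.00189 to 0.505). With gene-based factors both passed upward, as did PIK3C3. The complex then had 3 genes higher and 1 lower, beside 25.3% and 20.9% of all genes.

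Of the 6 genes of phagophore growth 2 rose, WIPI1 and VMP1, beside 14.9% of all genes called higher. WIPI1 (ENSG00000070540.8, chromosome 17, 66417089 to 66453654) encodes a propeller protein that binds the lipid made by PIK3C3. It was at 190.2, 177 and 197 normalised counts in DMSO replicates 1 to 3 and 385, 393 and 396 in NMS-873 replicates 1 to 3, and its replicates were tight: the SD was 5.56% of the mean with DMSO and 1.46% with NMS-873. This 2.07-fold rise (log2 difference 1.05, SE 0.0862, limma adjusted p = 9.90e-26) was the largest of the 37 members tested, under the spike-in scaling and in each of the 18 alternatives. Its paralogue WIPI2, which recruits ATG16L1, was at 3093, 3057 and 3217 normalised counts in DMSO replicates 1 to 3 and 3199, 3330.0 and 3464 in NMS-873 replicates 1 to 3. WIPI2 did not pass (log2 difference 0.09, SE 0.0537, limma adjusted p = 0.145), though it did with gene-based factors (log2 difference 0.20, adjusted p = 2.24e-05, range over alternatives 1.21e-05 to 0.402). The ratio of WIPI1 to WIPI2 FPKM within a library, which no scaling of libraries can change, was 0.162, 0.153 and 0.162 in the DMSO libraries and 0.318, 0.311 and 0.302 in the NMS-873 libraries. WIPI1 thus remained the lower of the pair in all 6 libraries, and its level per length relative to WIPI2 was 0.96 higher on the log2 scale.

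VMP1 (ENSG00000062716.6, chromosome 17, 57784553 to 57919616) encodes a lipid scramblase of the ER and was the most abundant member per length, at 37.2 ± 1.64 FPKM with DMSO. It was at 5869, 5620.4 and 5372 normalised counts in DMSO replicates 1 to 3 and 7849, 6954 and 6843 in NMS-873 replicates 1 to 3. The groups did not overlap, NMS-873 replicate 1 was the highest library, and the rise was 1.28-fold (log2 difference 0.36, SE 0.0551, limma adjusted p = 4.06e-09). MIR21, the microRNA gene nested at the end of VMP1 on the same strand, had 0 reads in its own row. How reads in the shared span were assigned was not tested, so this does not show whether MIR21 was expressed. The lipid transfer protein ATG2A was at 542, 513 and 526 normalised counts in DMSO replicates 1 to 3 and 529, 507 and 566 in NMS-873 replicates 1 to 3, and ATG2B at 274, 295 and 261 normalised counts in DMSO replicates 1 to 3 and 279, 275 and 301 in NMS-873 replicates 1 to 3. ATG2A, ATG2B and the scramblase ATG9A did not pass, at log2 differences of 0.02, 0.04 and 0.02 (adjusted p = 0.854, 0.695 and 0.792). Their groups overlapped. ATG9A was at 1704 normalised counts in DMSO and 1727 in NMS-873 libraries on average, and its 6 libraries spanned 1668 to 1770.3. With gene-based factors ATG9A passed at 0.12 (adjusted p = 0.00772, range over alternatives 0.00456 to 0.959).

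Of the 10 conjugation genes, 2 rose, 2 fell and 6 did not pass, beside 14.9% of all genes called higher and 33% lower. Their median log2 difference was -0.05 (0.06 with gene-based factors). The core enzymes did not pass: ATG7, the E1-like enzyme of both systems, was at 713 ± 30.6 normalised counts in DMSO and 706 ± 23.6 in NMS-873 libraries (log2 difference -0.01, limma adjusted p = 0.879). ATG3, the E2-like enzyme for ATG8, was at 2196 ± 98.6 and 2094 ± 54.9 (log2 difference -0.07, limma adjusted p = 0.308). ATG5 and ATG16L1, which with ATG12 form the E3-like complex, were at 983 ± 38.3 and 837 ± 17.7 normalised counts with DMSO and at 942 ± 40.6 and 816 ± 23.1 with NMS-873. Neither passed, at log2 differences of -0.06 and -0.04 (adjusted p = 0.419 and 0.658). The ubiquitin-like protein ATG12 itself (ENSG00000145782.8, chromosome 5, 115163893 to 115177555) was at 1496, 1475 and 1520.3 normalised counts in DMSO replicates 1 to 3 and 1708, 1775 and 1749.9 in NMS-873 replicates 1 to 3. Its libraries varied by under 2% of the mean within each treatment and did not overlap, and the rise was 16.5% (log2 difference 0.22, SE 0.0559, limma adjusted p = 4.28e-04). ATG10, the E2-like enzyme that joins ATG12 to ATG5, was low, at 169.7, 178 and 199 normalised counts in DMSO replicates 1 to 3 and 140.3, 157 and 157 in NMS-873 replicates 1 to 3. It was 1.2-fold lower (log2 difference -0.27, SE 0.104, limma adjusted p = 0.0264), and the call was lost without DMSO replicate 3 or NMS-873 replicate 1 (adjusted p = 0.168 and 0.115, range over alternatives 0.0193 to 0.263) and was lost as well under gene-based scaling (adjusted p = 0.172).

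The 4 ATG4 proteases, which trim ATG8 proteins before conjugation and release them from membranes, did not move alike. ATG4C (ENSG00000125703.10, chromosome 1, 63249806 to 63331184) was at 293, 277 and 281 normalised counts in DMSO replicates 1 to 3 and 236, 229 and 205 in NMS-873 replicates 1 to 3. No NMS-873 library reached the lowest DMSO library, and the fall was 1.27-fold (log2 difference -0.35, SE 0.0887, limma adjusted p = 4.79e-04). ATG4D (ENSG00000130734.5, chromosome 19, 10654571 to 10664094) was at 233, 203 and 240.1 normalised counts in DMSO replicates 1 to 3 and 252, 278 and 284 in NMS-873 replicates 1 to 3. It was 1.2-fold higher (log2 difference 0.27, SE 0.0897, limma adjusted p = 0.0084). The call was lost without DMSO replicate 2 (adjusted p = 0.105, range over alternatives 3.25e-04 to 0.105) and without the variance trend (adjusted p = 0.0523). The ratio of ATG4C to ATG4D FPKM was 0.920, 1.00 and 0.857 in the DMSO libraries and 0.686, 0.604 and 0.527 in the NMS-873 libraries. ATG4B, the protease with the highest level of the 4 at 9.31 ± 0.205 FPKM with DMSO, was at 1316, 1364 and 1371 normalised counts in DMSO replicates 1 to 3 and 1259, 1185 and 1274 in NMS-873 replicates 1 to 3. Its NMS-873 libraries lay below its DMSO libraries, but it did not pass (log2 difference -0.12, SE 0.0577, limma adjusted p = 0.065); without NMS-873 replicate 1 it passed downward (adjusted p = 0.0476, range over alternatives 0.0232 to 0.868). ATG4A was low, at 88.4, 71.3 and 78.4 normalised counts in DMSO replicates 1 to 3 and 89.2, 82.2 and 79.6 in NMS-873 replicates 1 to 3. Its groups overlapped and it did not pass (log2 difference 0.08, limma adjusted p = 0.663).

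Among the ATG8 genes MAP1LC3B and GABARAPL1 rose, GABARAPL2 and GABARAP did not pass, and MAP1LC3A had 1 read in all and was not tested. MAP1LC3B (ENSG00000140941.8, chromosome 16, 87417601 to 87438385) encodes LC3B, the usual marker of autophagosomes. It was at 2237, 2254 and 2468 normalised counts in DMSO replicates 1 to 3 and 3948, 3952 and 4147 in NMS-873 replicates 1 to 3. Each NMS-873 library was above all DMSO libraries, and the rise was 1.73-fold (log2 difference 0.79, SE 0.0540, limma adjusted p = 5.10e-34). GABARAPL1 (ENSG00000139112.6, chromosome 12, 10365057 to 10375727), of the GABARAP branch, was at 505, 517 and 505 normalised counts in DMSO replicates 1 to 3 and 658, 737 and 788 in NMS-873 replicates 1 to 3. The DMSO libraries were close together and the NMS-873 libraries spread more, with replicate 1 the lowest, and the rise was 1.42-fold (log2 difference 0.51, SE 0.0677, limma adjusted p = 1.12e-11). GABARAPL2 (GATE-16) was at 1409.9, 1335 and 1395 normalised counts in DMSO replicates 1 to 3 and 1304, 1443 and 1445 in NMS-873 replicates 1 to 3, with overlapping groups (log2 difference 0.02, SE 0.0573, limma adjusted p = 0.831). With gene-based factors GABARAPL2 passed upward, at a log2 difference of 0.12 (adjusted p = 0.0162, range over alternatives 0.00977 to 0.945).

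The proportions of the ATG8 transcripts differed between treatments. By FPKM, MAP1LC3B made up 41.4% ± 1.13 of the summed ATG8 level with DMSO and 52.7% ± 1.40 with NMS-873, and GABARAPL2 43.2% ± 1.19 and 32.1% ± 0.798. The ratio of MAP1LC3B to GABARAPL2 was 0.906, 0.964 and 1.01 in the DMSO libraries and 1.73, 1.56 and 1.64 in the NMS-873 libraries, so the genes were close to equal in the solvent and MAP1LC3B was the higher in all 3 treated libraries. The share of GABARAPL1 was 11.8% ± 0.510 and 12.4% ± 0.592. The summed level was 48.2 ± 1.55 FPKM with DMSO and 65.7 ± 2.84 with NMS-873. GABARAP was listed low, at 81.2, 78.9 and 99.2 normalised counts in DMSO replicates 1 to 3 and 79.2, 97.9 and 97.2 in NMS-873 replicates 1 to 3 (log2 difference 0.08, limma adjusted p = 0.646). Its level is uncertain: another row of the table on the same strand, with 0 reads in all 6 libraries, covers 85% of its span, and how reads in shared exons were assigned was not tested. The ATG8 shares and the summed level include GABARAP and depend on that level. MAP1LC3A had 1 read, in NMS-873 replicate 1, and 0 in the other 5 libraries, so no fold is given.

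**Figure D2:**
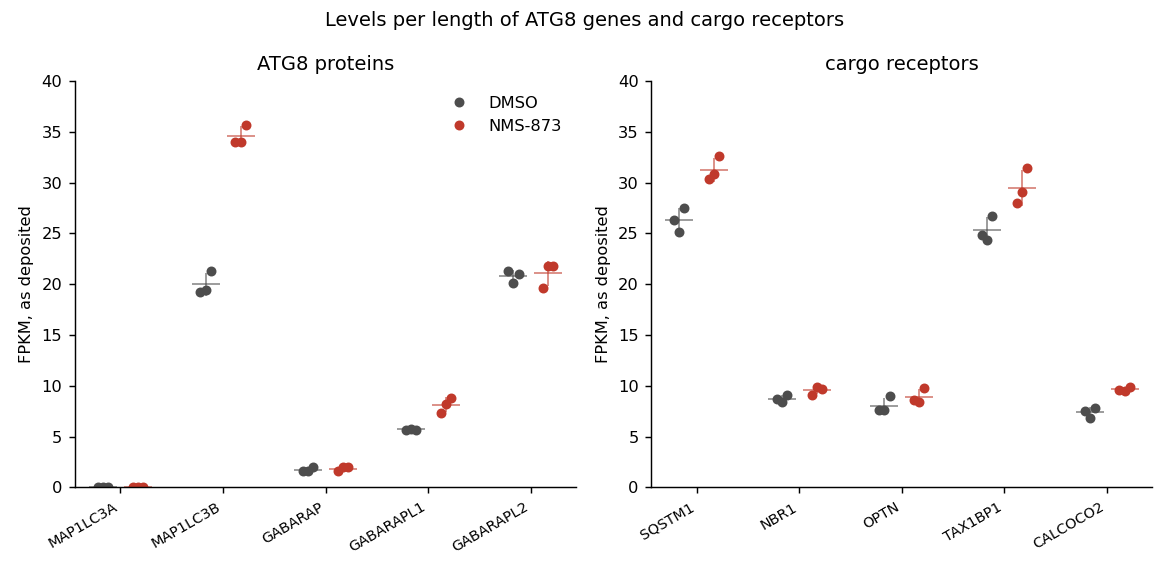
Deposited FPKM (y axis, from 0) of the ATG8 genes and the cargo receptors in each library; points are libraries, bars the mean and SD of 3. MAP1LC3B and GABARAPL2 are level with DMSO, at a ratio of 0.906 to 1.01, and apart with NMS-873, at 34.6 and 21.1 FPKM.

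All 5 cargo receptors were called higher, by small amounts: the range of log2 differences was 0.13 to 0.38. Over all genes tested 14.9% were called higher. The count was also 5 with gene-based and TMM factors, but 3 when NMS-873 replicate 3 or either of DMSO replicates 1 and 2 was left out, 4 without NMS-873 replicate 2, and 3 with log2(FPKM + 0.1), with no count minimum or without the variance trend. CALCOCO2 (ENSG00000136436.10, chromosome 17, 46908350 to 46943884), which encodes NDP52, a receptor for bacteria and mitochondria, was at 1367, 1252 and 1423 normalised counts in DMSO replicates 1 to 3 and 1753, 1722 and 1792 in NMS-873 replicates 1 to 3. Its groups did not overlap and the rise was 1.30-fold (log2 difference 0.38, SE 0.0567, limma adjusted p = 9.70e-10). SQSTM1 (ENSG00000161011.15, chromosome 5, 179233388 to 179265078), which encodes p62, a receptor that is itself degraded by autophagy, was at 4412, 4210.3 and 4600.5 normalised counts in DMSO replicates 1 to 3 and 5091, 5164 and 5464 in NMS-873 replicates 1 to 3. It rose 1.19-fold (log2 difference 0.25, SE 0.0540, limma adjusted p = 3.12e-05). TAX1BP1 (ENSG00000106052.9, chromosome 7, 27778950 to 27884183) was at 4708, 4607 and 5065 normalised counts in DMSO replicates 1 to 3 and 5300.0, 5494 and 5946 in NMS-873 replicates 1 to 3. It rose by 16.4% (log2 difference 0.22, SE 0.0544, limma adjusted p = 3.14e-04, highest over alternatives 0.0464). SQSTM1 and TAX1BP1 were the most abundant receptors, at 26.3 ± 1.17 and 25.3 ± 1.27 FPKM with DMSO, a difference within their spread.

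The calls of NBR1 and OPTN were close to the threshold. NBR1, a relative of p62, was at 1599, 1541 and 1673 normalised counts in DMSO replicates 1 to 3 and 1675, 1822 and 1786 in NMS-873 replicates 1 to 3; its lowest NMS-873 library and its highest DMSO library were at nearly the same level (log2 difference 0.13, SE 0.0560, limma adjusted p = 0.0384). OPTN (optineurin) was at 854, 850.0 and 1002 normalised counts in DMSO replicates 1 to 3 and 960.4, 938 and 1097 in NMS-873 replicates 1 to 3. Its groups overlapped (log2 difference 0.15, SE 0.0620, limma adjusted p = 0.0398), yet it passed; limma's estimate of spread drew on genes of similar level with 251 prior degrees of freedom, against 4 of the gene's own. NBR1 no longer passed without DMSO replicate 1 or 2 or NMS-873 replicate 2 or 3 (adjusted p = 0.111, 0.168, 0.192 and 0.0959; range over alternatives 7.26e-06 to 0.192). OPTN did not pass without DMSO replicate 1 or 2 or NMS-873 replicate 3 (adjusted p = 0.227, 0.202 and 0.361; range 3.43e-04 to 0.361). Without the variance trend both calls were lost (adjusted p = 0.125 and 0.261). Calls that were kept had larger p-values there: limma adjusted p for MAP1LC3B was 3.19e-04, against 5.10e-34 with the trend.

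Neither TFEB nor TFE3 passed. TFE3 (ENSG00000068323.12, chromosome X, 48886242 to 48901012) was at 3374, 3279 and 3544 normalised counts in DMSO replicates 1 to 3 and 3021, 3323 and 3405 in NMS-873 replicates 1 to 3, with overlapping groups (log2 difference -0.07, SE 0.0540, limma adjusted p = 0.318). TFEB (ENSG00000112561.13, chromosome 6, 41651716 to 41703997) was at 168, 154 and 151 normalised counts in DMSO replicates 1 to 3 and 116, 144 and 146 in NMS-873 replicates 1 to 3. The NMS-873 libraries of TFEB lay below its DMSO libraries, with replicate 1 the lowest (log2 difference -0.22, SE 0.110, limma adjusted p = 0.0817). Without NMS-873 replicate 3 TFEB passed downward (adjusted p = 0.044, range over alternatives 0.044 to 0.575). TFE3 made up 96.6% ± 0.254 of the summed FPKM of the pair with DMSO and 96.9% ± 0.189 with NMS-873. It ranked just below VMP1 in level per length among all 38 members with DMSO, at 36.4 ± 1.43 FPKM, a difference within their spread. These factors are controlled mainly by phosphorylation and nuclear entry, which transcript levels do not measure.

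**Figure D3:**
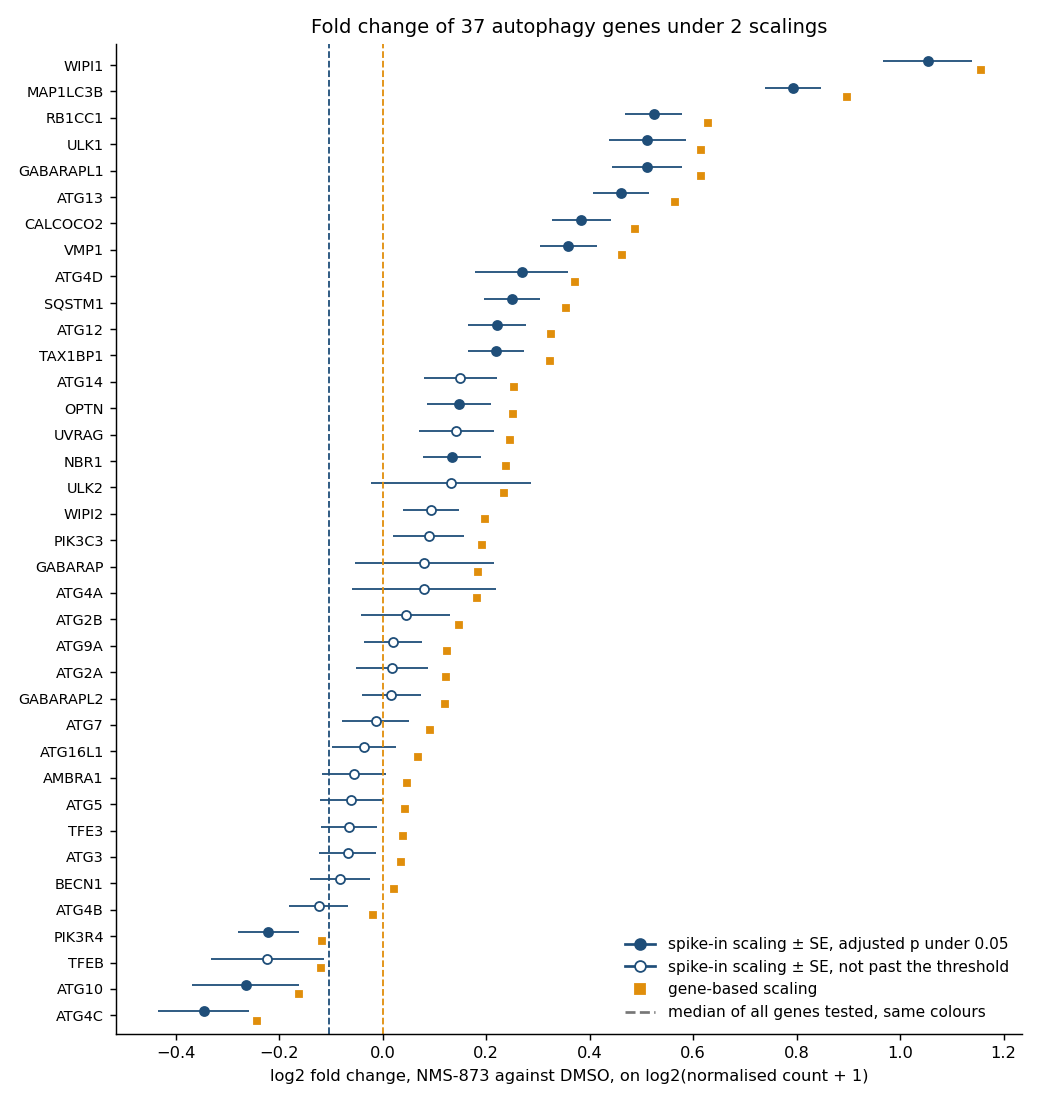
Log2 difference of the 37 tested genes (x axis, NMS-873 against DMSO) with spike-in scaling (circles ± SE, filled where the adjusted p is under 0.05) and with gene-based scaling (squares); dashed lines are the medians of all genes tested. The squares sit about 0.10 to the right of the circles, as does the median line.

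Ratios of related genes were compared within libraries for 11 pairs, since a ratio does not depend on how libraries are scaled. With 3 libraries against 3 the exact two-sided permutation test cannot go below p = 0.10, and 0.157 after Benjamini-Hochberg adjustment over the 11 pairs, so these are descriptions. The treatments did not overlap for 7 pairs, each at the smallest p that the exact permutation test allows. Among all single genes tested, 16.4% lay wholly higher and 37.2% wholly lower with NMS-873. The share over ratios of other gene pairs was not computed, so the 7 pairs do not set these pairs apart. The differences in mean log2 ratio (NMS-873 minus DMSO) were 0.96 for WIPI1 to WIPI2, 0.78 for MAP1LC3B to GABARAPL2, 0.49 for GABARAPL1 to GABARAPL2 and 0.38 for ULK1 to ULK2. They were -0.62 for ATG4C to ATG4D, -0.17 for TAX1BP1 to CALCOCO2 and 0.12 for SQSTM1 to NBR1. The groups overlapped for the other 4: 0.20 for ATG4A to ATG4B, -0.16 for TFEB to TFE3, 0.06 for GABARAP to GABARAPL2 and -0.03 for ATG2A to ATG2B.

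**Figure D4:**
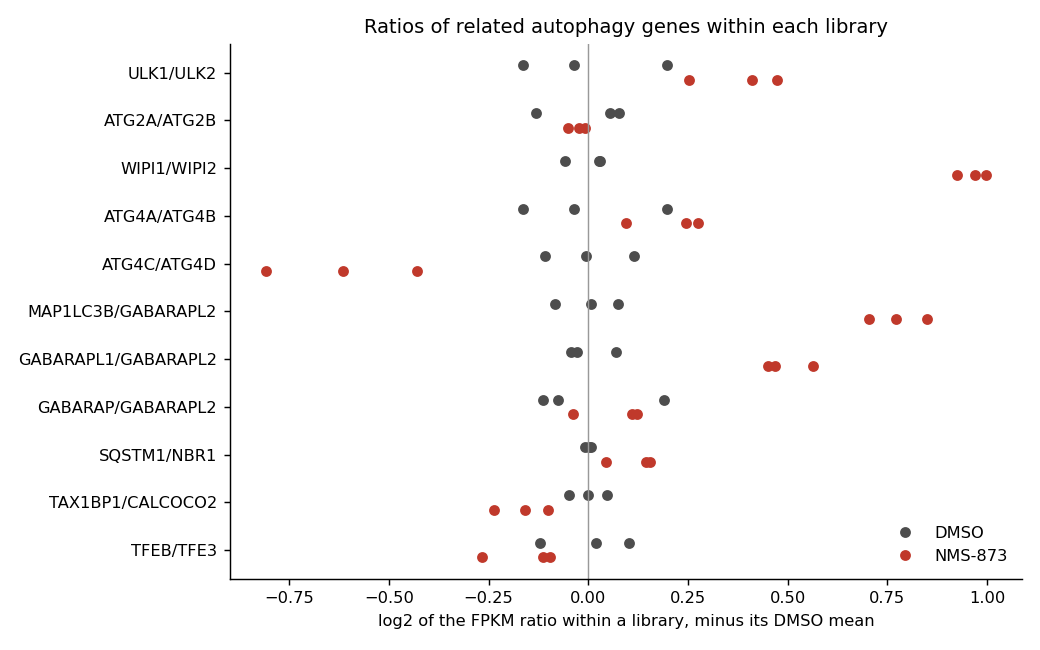
Log2 of the FPKM ratio of 2 related genes within a library, minus the mean of that ratio over the DMSO libraries (x axis), for 11 pairs; grey points are DMSO and red points NMS-873 libraries. WIPI1 to WIPI2 lies 0.96 to the right and ATG4C to ATG4D 0.62 to the left.

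Of 51 further autophagy genes, from partners of each step to fusion with lysosomes and control of TFEB, 47 were tested, 8 rose and 11 fell, beside 14.9% of all genes called higher and 33% lower; the share that rose was near that background and the share that fell below it. The median log2 difference of this list was -0.04. Scaled to the genes, 16 rose and 7 fell (25.3% and 20.9% of all genes), and with spike-in scaling 5 rose and 9 fell when DMSO replicate 1 was left out. Of 3 tested partners each, 1 rose for initiation, 2 for the PI3K complex and 2 for phagophore growth, and 0 fell. Of 8 receptors and adaptors beyond the 5 cargo receptors, 1 rose and 2 fell, with a median log2 difference of -0.07. The 3 tested relatives of ATG8 and ATG16 genes did not pass. TMEM41B, an ER scramblase that works with VMP1, was at 679.8, 691 and 652 normalised counts in DMSO replicates 1 to 3 and 1983, 1833 and 2016 in NMS-873 replicates 1 to 3, a 2.88-fold rise (log2 difference 1.53, SE 0.0589, limma adjusted p = 6.88e-71). Its rise was above that of each of the 37 members tested, with spike-in scaling. NRBF2, a subunit of the PI3K complex with ATG14, rose 1.52-fold, from 792 ± 57.4 to 1201 ± 66.7 normalised counts (log2 difference 0.60, SE 0.0610, limma adjusted p = 3.02e-18). ATG101, the partner of ATG13, rose 1.35-fold, from 1475 ± 83.7 to 1999 ± 138 (log2 difference 0.44, SE 0.0563, limma adjusted p = 2.76e-12). ATG101 was thus called in the same direction as ULK1, RB1CC1 and ATG13.

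Of 14 genes of fusion with lysosomes, 6 fell and the other 8 did not pass, beside 33% of all genes called lower, and the median log2 difference was -0.12, near the -0.10 of all genes. VPS18 and VPS33A, core subunits of the tethering complex HOPS, fell 1.60-fold and 1.36-fold. Its subunits VPS16 and VPS41 fell less, 1.15-fold and 1.13-fold. VPS11 and VPS39, also of HOPS, did not pass (log2 differences -0.04 and -0.05, limma adjusted p = 0.639 and 0.558). VPS18 was at 826, 797 and 866 normalised counts in DMSO and 517, 516 and 517 in NMS-873 libraries (log2 difference -0.68, SE 0.0659, limma adjusted p = 1.02e-19), and VPS33A at 365 ± 21.8 and 268 ± 5.74 (log2 difference -0.44, SE 0.0821, limma adjusted p = 1.15e-06). TECPR1, which links autophagosomes to lysosomes, fell 1.32-fold (log2 difference -0.40, SE 0.0685, limma adjusted p = 1.12e-07). Of 13 tested genes of TFEB control and mTORC1, 2 rose and 3 fell, beside 14.9% of all genes called higher and 33% lower. RPTOR, the mTORC1 scaffold that binds substrates, fell 1.39-fold, from 1972 ± 77.4 to 1418 ± 47.7 normalised counts (log2 difference -0.48, SE 0.0559, limma adjusted p = 2.94e-14). FNIP1, the partner of the TFEB regulator folliculin, rose 1.44-fold, from 616 ± 17.1 to 889 ± 67.5 (log2 difference 0.53, SE 0.0644, limma adjusted p = 2.12e-13).

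Per length, levels of the members with DMSO ran from 37.2 ± 1.64 FPKM for VMP1 down to 0.289 ± 0.0468 for ULK2, with MAP1LC3A listed at 0. VMP1 and TFE3 led, followed by SQSTM1 and TAX1BP1, and then by GABARAPL2 and MAP1LC3B; within each of these pairs the difference was smaller than the sum of their SDs. With NMS-873, MAP1LC3B (34.6 ± 0.982 FPKM) reached the level of TFE3 (34.8 ± 2.16 FPKM). ULK1 was at 2.12 ± 0.145 FPKM with DMSO, below its partners ATG13 (12.2 ± 0.483) and RB1CC1 (10.3 ± 0.475).

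Several members overlap genes on the opposite strand, and no source used here gives whether counting used strand. FBXO31 overlaps 39.2% of the span of MAP1LC3B and was also called higher. Its log2 difference was 0.19 (limma adjusted p = 0.00568), and that of MAP1LC3B was 0.79. At the ends of SQSTM1 lie MGAT4B and C5orf45, which fell (log2 differences -0.47 and -0.65, adjusted p = 2.06e-14 and 8.85e-10) while SQSTM1 rose. PSME3 overlaps 38.6% of BECN1 and was at -0.12. RPS23, at 15083 normalised counts on average, overlaps 1.15% of the span of ATG10, which averaged 167. On the same strand, ABCB6 overlaps 46.2% of the span of ATG9A and averaged 4.81 normalised counts. The part of these overlaps in the values of the members was not tested.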

How the data were processed

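RNA-seq libraries of 3 DMSO and 3 NMS-873 samples were grouped by title. The sample columns deposited by the authors hold FPKM, a unit told from the values, since each gene's ratio to its mean normalised count is constant over libraries. Its other columns are the mean normalised count (a signal in reads after scaling), the authors' log2 fold change and their adjusted p-value, per the file headers. The submitters' processing notes name hg19, featureCounts 1.5.1 and DESeq2 1.16.1, and the sources used here give no aligner. Coordinates of genes are those of the deposited table.

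Normalised counts were rebuilt as FPKM times the mean normalised count over the mean FPKM of the gene. Multiplied by each library's implied size factor, 100% of values came within 0.001 of a whole read, and median-of-ratios factors computed from the 92 spike-in rows matched them (largest relative difference 2.2e-15). Genes with a mean of at least 10 (14889 of 57820) were tested on log2(normalised count + 1) with limma 3.58.1 in R 4.3.3, with treatment as the only term and an intensity trend, two-sided, with Benjamini-Hochberg adjustment over all genes at 0.05. Log2 differences and folds are on that scale, which understates those of low genes. Within treatments replicates differed by 1.53 to 7.81 (chi-square per degree of freedom), above sampling noise. No molecular identifiers are in the files. The scripts were tested on simulated data, in which 56% of 1.2-fold and 86% of 1.5-fold changes were called in the right direction. Far fewer genes changed there than here, so these rates are only a guide. A gene that did not pass may still have a small change.

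Values of every library are printed for members past the threshold with a change of at least 1.2-fold and for paired paralogues. Of the 51 other pathway genes the 8 with the lowest adjusted p are named, as are the other listed subunits of HOPS. The members and lists were chosen with earlier results of these data known. Of the markers, PECAM1 was not matched and is not analysed here. Motifs were searched as exact letters on both strands of RefSeq promoter windows of 300 bases (250 before and 50 after the start). Alternatives were other scalings, pseudocounts, filters and tests, a replicate block, and leaving out each library.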

Additional observations from a re-analysis of the deposited data

How the results depend on the processing

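Direction was kept for every called member in all 18 alternatives, and 12 of the 17 called members also kept an adjusted p under 0.05 in each; the exceptions are PIK3R4, ATG4D, ATG10, NBR1 and OPTN. Over the 37 tested members and 18 alternatives, 619 of 666 values stayed on their side of the threshold, 22 lost a call and 25 gained one. The number of members that rose ranged from 11 (without the variance trend) to 20 (gene-based and TMM factors) and the number that fell from 1 (TMM factors) to 4. When each library was left out in turn, 11 to 15 members rose and 2 to 4 fell. Of the other pathway genes 16 rose and 7 fell with gene-based factors, 17 and 7 with TMM factors, and 7 fell without the variance trend; with each library left out, 5 to 12 rose and 8 to 11 fell. Over all genes 7127 were called, and 5975 to 6835 with a library left out. The cause of these changes was not tested.

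The title numbers are shared by both treatments. Deviations of same-numbered libraries from their treatment means correlated at 0.0394, -0.0253 and 0.0425. DMSO replicates 1 and 3 correlated best with the same-numbered NMS-873 library, and DMSO replicate 2 with NMS-873 replicate 1 (0.035). All of these correlations were weak, so they cannot decide whether the numbers pair the samples. With the replicate block 15 members rose and 4 fell, 9 and 13 of the other pathway genes rose and fell, and 7607 genes were called.

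Depth limits ULK2, ATG4A, GABARAP and TFEB, at 64.8 to 146 normalised counts on average, and MAP1LC3A, at 1 read in all. Each of the 77 paralogue ratio differences recomputed moved by less than the spread between replicates. Where a library was left out this had to happen, since groups this small cannot shift their mean by more than that spread. Those values therefore cannot show whether the ratios are stable. Differences recomputed from FPKM + 0.1 are not bound in this way, and they also stayed within that spread.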

Other observations

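MAP1LC3B2, a near-identical copy of MAP1LC3B, averaged 2.67 normalised counts over the 3 DMSO libraries and 4.05 over the 3 NMS-873 libraries, and was not tested. GABARAPL3, a copy of GABARAPL1, and the pseudogenes BECN1P1, ATG12P2, ATG3P1, ATG4AP1 and SQSTM1P1 were listed at 0 in all 6 libraries. MAP1LC3C, a further LC3 gene, averaged 6.29 normalised counts over the 3 DMSO libraries and 4.03 over the 3 NMS-873 libraries. MITF, a relative of TFEB and TFE3, was at 229 ± 25.1 and 252 ± 40.9 normalised counts and did not pass (log2 difference 0.13, adjusted p = 0.252 in limma).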
